A study of Mus musculus with 96 samples.

Results

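The expression of 10 fatty acid synthesis genes was described in gonadal fat and liver: Acly, Acss2, Acacb, Fasn, Elovl6, Scd1, Fads1, Fads2, Thrsp and Pnpla3. They were chosen by name as lipogenic genes, with earlier results of these data known. Every array probe that carries any of these symbols was taken. This gave 16 of the 46116 probes and 10 of the 17658 named genes on the array. All 96 arrays came from 48 mice of an F2 intercross between the M16i and MB2 lines, 24 females and 24 males, 15 weeks old, with 1 array of gonadal fat and 1 of liver for each animal. The mice fell into haplotype classes 1, 2, 3 and 4, with 6 females and 6 males in each class, and the arrays were scanned on 8 days, 4 for each tissue. The labels name no treatment or diet, and no source used here gives the parental segments of each class. The purpose stated for the series was the detection of expression QTLs in a study of obesity and mouse chromosome 2. Replicates are separate mice, and p-values measure the spread between them; the labels do not give their litters.

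Fatty acid synthesis turns citrate and acetate carbon into long fatty acids in the cytosol. Acly and Acss2 make acetyl-CoA, acetyl-CoA carboxylases make malonyl-CoA from it, Fasn joins these units into palmitate, Elovl6 lengthens the chain, and Scd1, Fads1 and Fads2 insert double bonds. Liver and adipose tissue are the main sites of this pathway, and in rodents insulin and carbohydrate feeding raise its genes together through the factors SREBP-1c and ChREBP.

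Of the 10 genes, 8 had a promoter window of 300 bases in the RefSeq table, which names the GRCm38.p6 assembly, from 250 bases before the annotated start to 50 after it. Those of 5 genes are shown because Acss2, Acly, Elovl6 and Thrsp moved together most closely in fat and Fasn joined them less closely. Capitals mark the CCAAT box, read as CCAAT on the printed strand or as ATTGG where it lies on the opposite one. The sequences run 5′ to 3′ along the strand of the gene.
Acss2: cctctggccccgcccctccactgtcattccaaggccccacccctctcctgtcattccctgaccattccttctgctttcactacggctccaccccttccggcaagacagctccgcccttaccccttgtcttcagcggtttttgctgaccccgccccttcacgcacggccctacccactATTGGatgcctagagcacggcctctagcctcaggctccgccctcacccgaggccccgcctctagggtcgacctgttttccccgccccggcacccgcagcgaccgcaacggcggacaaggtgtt
Acly: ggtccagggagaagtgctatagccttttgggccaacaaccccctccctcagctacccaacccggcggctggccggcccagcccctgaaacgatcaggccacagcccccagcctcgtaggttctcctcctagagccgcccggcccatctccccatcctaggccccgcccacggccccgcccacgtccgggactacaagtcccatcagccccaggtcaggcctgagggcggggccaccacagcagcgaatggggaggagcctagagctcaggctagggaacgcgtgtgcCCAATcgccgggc
Elovl6: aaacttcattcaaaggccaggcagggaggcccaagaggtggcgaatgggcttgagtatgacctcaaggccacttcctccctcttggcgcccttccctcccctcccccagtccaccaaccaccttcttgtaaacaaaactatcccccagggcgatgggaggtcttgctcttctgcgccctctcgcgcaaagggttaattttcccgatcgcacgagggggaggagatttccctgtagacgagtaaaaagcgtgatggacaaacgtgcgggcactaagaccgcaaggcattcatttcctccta
Thrsp: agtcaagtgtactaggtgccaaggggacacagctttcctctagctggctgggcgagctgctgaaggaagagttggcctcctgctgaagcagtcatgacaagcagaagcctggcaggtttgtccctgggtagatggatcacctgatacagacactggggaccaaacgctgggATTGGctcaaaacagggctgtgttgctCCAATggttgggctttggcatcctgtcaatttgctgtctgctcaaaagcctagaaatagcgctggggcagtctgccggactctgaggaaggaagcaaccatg
Fasn: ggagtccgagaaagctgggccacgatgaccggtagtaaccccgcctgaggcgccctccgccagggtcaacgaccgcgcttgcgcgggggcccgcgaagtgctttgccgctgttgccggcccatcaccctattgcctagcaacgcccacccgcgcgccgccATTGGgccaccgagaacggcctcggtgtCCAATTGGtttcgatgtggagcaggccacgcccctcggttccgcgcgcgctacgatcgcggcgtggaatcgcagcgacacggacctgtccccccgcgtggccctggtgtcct
These windows lie at chr2:155517793-155518092 on the plus strand for Acss2, chr11:100527951-100528250 on the minus strand for Acly and chr3:129532136-129532435 on the plus strand for Elovl6. Those of Thrsp and Fasn lie at chr7:97417501-97417800 and chr11:120824498-120824797, both on the minus strand.

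A CCAAT box on either strand was present in 6 of the 8 windows, those of Acss2, Acly, Acacb, Fasn, Thrsp and Pnpla3, and in 37.4% of the 32851 windows of the table. The only match in Acly lies 37 to 41 bases after the annotated start, and the matches of the other genes lie before it. In Fasn the CCAAT box occurred 3 times, and the last pair of matches overlap. The sterol regulatory core TCACNCCAC, searched on both strands, was in 0 of the 8 windows and in 1.24% of all windows. The E-box CACGTG, which reads the same on both strands, was in 0 of the 8 and in 7.15% of all. These matches describe letters in the windows and nothing more.

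Of the 16 probes, 4 were not above background on any array, namely second probes of Acss2 (4590148), Thrsp (102690609), Acacb (130725) and Fads1 (101990040). A probe entered the tests of a tissue if 12 or more arrays gave it a detection p below 0.01, so that 9 genes with 1 probe each could be tested in fat and all 10 genes, with 11 probes, in liver. Fads2 was the gene left out in fat: its probes 630253 and 105130020 were above background on 2 and 3 of 48 fat arrays, all of them male, and on all 48 liver arrays. A second Elovl6 probe (103120253) was above background on 4 fat and 10 liver arrays. Values are log2 signals after background correction and quantile normalization, and a level of one gene is not comparable with that of another, since the probes differ.

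Each array had 6582 to 10002 probes above background in fat (median 9226) and 5519 to 9060 in liver (median 7456.5). Summed signals of 7 adipocyte markers (7 of 8 had a probe) spanned 17910 to 46572 on fat arrays, against 325 to 355 on liver arrays, with 5 of the 7 never detected in liver. Those of 8 hepatocyte markers spanned 369 to 1167 on fat arrays, against 64474 to 100107 on liver arrays. The Alb probe was above background on 0 fat and 18 liver arrays. One male fat array, replicate 1 of the class 2 males, held the epididymal transcripts Adam7 and Spint4 at 12.76 and 11.51, against at most 7.00 and 5.83 on the other fat arrays. It was also 1 of the 3 fat arrays with the lowest mean correlation to the others, and results that change without it are given with both values.

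Between the tissues, the lipogenic genes did not go one way. With both tissues normalized together, all 10 genes differed, 5 higher in fat (Pnpla3, Fasn, Scd1, Thrsp and Acly) and 5 higher in liver (Fads2, Acss2, Fads1, Acacb and Elovl6), beside 86.7% of all 11718 probes tested, of which 47.9% were higher in fat and 38.8% higher in liver. The call of Fads2 is one of direction only, since its fat signal lay at background. The median difference of the 10 genes was -0.05 log2 units, and the place of Fads2 at the low end does not enter it, against 0.06 over all 7740 genes tested. A called gene is one with a Benjamini-Hochberg adjusted p under 0.05 in limma, here in a model with tissue, sex and class. Fewer cells of a type and less RNA per cell cannot be told apart in such whole-tissue samples.

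The genes of acetyl-CoA supply stood on opposite sides. Acss2, which makes acetyl-CoA from acetate, ranged from 6.83 to 11.58 in fat (mean 8.38 ± 1.05, SD, n = 48), against 8.69 to 11.61 in liver (mean 10.39 ± 0.63, n = 48). The difference was -2.01 ± 0.16 (SE), or 4.03-fold lower in fat (limma adjusted p = 3.36e-22), and higher in liver in 44 of 48 mice. Acly, which cleaves citrate, averaged 11.45 ± 0.72 in fat and 11.07 ± 0.49 in liver (SD, n = 48 each), a difference of 0.38 ± 0.12 (limma adjusted p = 0.00299) that was seen in 28 of 48 mice. The ranges of both genes overlapped between the tissues.

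Fasn, the synthase itself, had values of 11.00 to 13.47 in fat, against 9.55 to 12.15 in liver, and was 2.92-fold higher in fat (difference 1.55 ± 0.11, limma adjusted p = 2.5e-23; higher in fat in 46 of 48 mice). Acacb encodes the carboxylase at the mitochondrial surface, whose malonyl-CoA restrains fatty acid oxidation. It averaged 8.26 ± 1.02 in fat and 8.92 ± 0.61 in liver (SD, n = 48 each; difference -0.66 ± 0.17, limma adjusted p = 0.000167), with 34 of 48 mice higher in liver. Elovl6 averaged 6.88 ± 0.97 in fat and 7.36 ± 0.57 in liver (difference -0.48 ± 0.15, limma adjusted p = 0.00229), and was above background on 39 fat arrays. Its second probe (103120253), above background on 4 fat and 10 liver arrays, was also tested here and not called (-0.08 ± 0.04, limma adjusted p = 0.0835).

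Of the desaturase genes, Scd1 was higher in fat, and Fads1 and Fads2 in liver. Scd1, which makes monounsaturated fatty acids, averaged 14.62 ± 0.29 in fat and 13.64 ± 0.51 in liver (SD, n = 48 each), a 1.96-fold difference (limma adjusted p = 1.13e-20) seen in 45 of 48 mice. On the fat arrays it was between the 2nd and the 27th brightest of all probes (median rank 7), so its values lie at the top of the scale. Fads1 and Fads2, which make polyunsaturated fatty acids, were both higher in liver in 48 of 48 mice. Fads1 ranged from 10.16 to 11.78 in fat and from 12.17 to 13.08 in liver, with no overlap, and was 3.44-fold lower in fat (limma adjusted p = 1.05e-49).

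Fads2 was above background on 0 of 24 female fat arrays and on all 24 female liver arrays. In females it was at least 5.23-fold higher in liver by probe 630253 and at least 4.22-fold by probe 105130020. These are bounds, taken against the lowest signal called above background on each fat array or the probe's own signal, whichever was higher. Measured means of probe 630253 were 5.99 in female fat, at background, and 8.61 in female liver, and no exact difference is given.

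Pnpla3, a lipid droplet protein gene that is switched on with lipogenesis, had the widest gap among the 9 genes measured in both tissues; that of Fads2 is known only as a bound. Its level was 8.13 to 12.21 in fat (mean 10.52 ± 1.00, SD, n = 48), against 6.22 to 9.57 in liver (mean 7.08 ± 0.77, n = 48), 10.8-fold higher in fat (limma adjusted p = 1.4e-33) and higher there in 48 of 48 mice. Thrsp, a nuclear protein gene induced by thyroid hormone and carbohydrate that promotes lipogenesis, averaged 9.47 ± 1.18 in fat and 8.71 ± 1.14 in liver (difference 0.76 ± 0.23, limma adjusted p = 0.00172; 33 of 48 mice). Each scanning day held arrays of 1 tissue. With day as a random block, an alternative chosen after seeing the data, 6 genes were called beside 73.6% of all probes (Fads2 again against background), and Elovl6, Acly, Acacb and Thrsp were not (adjusted p of 0.14, 0.146, 0.0667 and 0.118). With median scaling in place of quantile normalization, which moved the median of all probes to 0.26, the difference was -0.21 for Acacb and 0.01 for Elovl6, and neither was called, and of the calls over all probes 80% were then higher in fat, against 55.2% with quantile normalization. In the authors' deposited log2 matrix, whose normalization between the tissues is not stated, that share was 41.3% and Acly was not called (0.16).

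**Figure D1:**
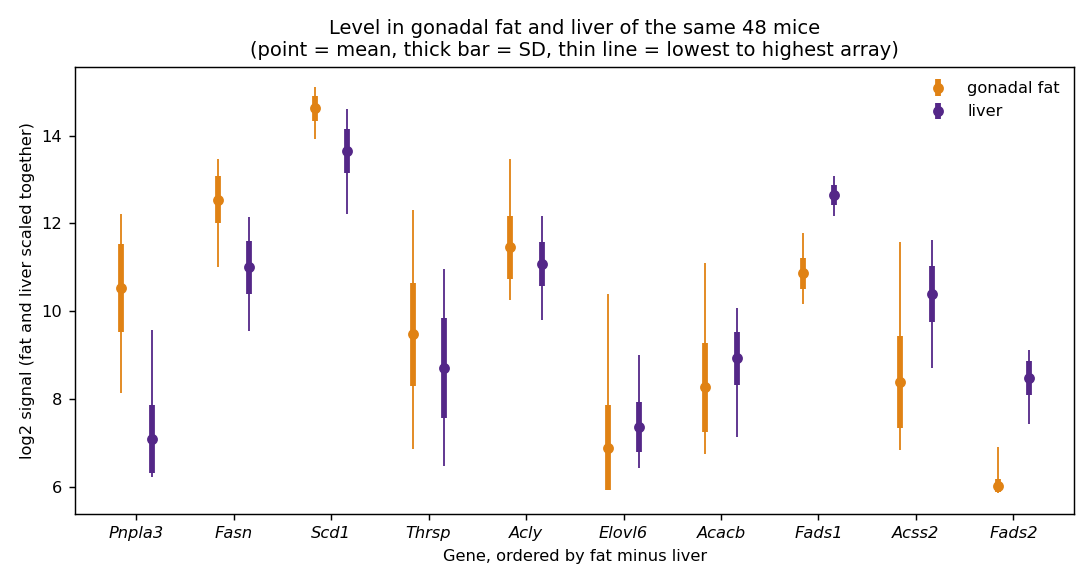
Log2 signal of each gene in gonadal fat (left of each pair) and liver (right), normalized together; points are means over 48 arrays, thick bars SDs and thin lines the range. The genes run from Pnpla3, higher in fat by 3.44, to those higher in liver; Fads2 in fat lay at background, so its place in this order is not settled. The ranges of the 2 tissues do not overlap for Fads1 and Fads2.

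The genes around the pathway also divided between the tissues. Of 12 genes for citrate, acetyl-CoA and NADPH supply, 8 were higher in fat and 3 in liver (median difference 0.88), among them Acss1 (1.00), citrate synthase Cs (1.70), Taldo1 (1.52) and Pdha1 (1.48). Over all 7740 genes tested, 3827 were higher in fat and 2938 in liver, so a list in which most genes differ is close to the rest of the array. All 17 other genes of fatty acid synthesis, elongation and desaturation differed, 6 higher in fat and 11 in liver (median -0.43), led by Fads3 (4.40) and Scd2 (4.60) in fat and Elovl2 (-3.34) and Fads6 (-2.14) in liver. Of 11 genes for triglyceride assembly, 7 were higher in fat and 4 in liver (median 0.62), with Gpat3 (2.08) and Dgat1 (2.04) in fat and Lpin2 (-2.30) and Acsl5 (-2.41) in liver. Of 13 regulators, 3 were higher in fat and 8 in liver (median -0.21): Pparg was higher in fat (3.42), while Insig2 (-3.69), Scap (-1.88) and Mlxipl, the gene of ChREBP (-1.59), were higher in liver. The 8 genes for sugar uptake and glycolysis split 4 and 4, with Hk2 (3.78) and Pkm (3.45) in fat and Khk (-4.46) and Tkfc (-2.98) in liver.

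Sex differences in fat ran in both directions. Of the 9 genes tested, Elovl6 and Acss2 were higher in females and Pnpla3, Acacb and Fads1 higher in males, 5 called beside 22.6% of all 10217 fat probes (12.1% with the higher level in females, 10.5% in males). The median difference between females and males was 0.00 for the 9 genes and 0.00 over all 6871 genes tested. The model held sex, class and scanning day. On no scanning day did females and males share a class, in fat or in liver. Counts of days, here and in liver, therefore compare females of some classes with males of others, with no terms removed. With median scaling, 24.7% of the calls over all probes were higher in females, against 53.6% with quantile normalization, and the same 5 genes were called in the same directions.

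Acss2 was 7.64 to 11.38 in female fat with a median of 8.74, against 6.99 to 8.87 in male fat with a median of 8.06. The highest females lay far above every male, while the lowest females lay within the male range. The difference was 0.96 ± 0.24 (SE), or 1.94-fold (limma adjusted p = 0.0032). Elovl6 was 6.12 to 10.29 in female fat (median 7.05), against 5.95 to 7.75 in male fat (median 6.33), and was above background on 22 female and 17 male arrays. Its difference was 1.00 ± 0.26 (limma adjusted p = 0.00336), and the highest male value came from the array with epididymal transcripts. Both genes were higher in females on 4 of 4 scanning days, and neither was called without day 3 (0.84 and 1.00, adjusted p of 0.103 and 0.0616). The fit without day 3 called 970 of all 10217 probes, against 2314 with it.

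Pnpla3 was 8.34 to 11.25 in female fat (median 10.07), against 10.17 to 11.99 in male fat (median 10.86). The lower part of the female range was empty of males, and the difference was -1.03 ± 0.21, or 2.04-fold (limma adjusted p = 0.000358). Acacb was 6.88 to 10.92 in female fat (median 7.93), against 7.27 to 10.17 in male fat (median 8.81), a difference of -0.96 ± 0.23 (limma adjusted p = 0.00155). Fads1 was 10.10 to 11.38 in female fat (median 10.63), against 10.30 to 11.56 in male fat (median 10.77), and its difference was small, at -0.23 ± 0.08 (limma adjusted p = 0.0333). All 3 were lower in females on 4 of 4 scanning days, with Fads1 at only -0.007 on day 4. Fads1 was not called without the array with epididymal transcripts (-0.21, adjusted p = 0.0514), without day 3, 7 or 8 (adjusted p of 0.181, 0.218 and 0.11), without the day term or without the filter on dim probes.

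The other 4 genes did not pass in fat. Acly differed by 0.48 ± 0.19 (limma adjusted p = 0.067; called without the day term, at 0.545), Thrsp by -0.36 ± 0.31, Fasn by 0.12 ± 0.14 and Scd1 by 0.00 ± 0.07. Summed stroma markers moved with sex in fat, at 7358 to 15349 in females (median 9566) and 6192 to 10055 in males (median 7255), with all 5 markers detected in both sexes. Mesothelial markers had medians of 1327 in females and 812 in males, and endothelial markers 3130 and 2590. Adipocyte markers had medians of 29828 in females and 28396 in males, and macrophage markers 2413 and 2427. The part of these in the sex differences was not tested.

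In liver, 5 genes were higher in females (Fads1, Fads2, Scd1, Acss2 and Pnpla3) and Thrsp was higher in males. These 6 of 10 stand beside 34% of all 8504 liver probes, split into 16.7% with the higher level in females and 17.4% in males. The median difference of the 10 genes was 0.31, against 0.00 over all 5827 genes tested. With median scaling, 86.4% of the calls over all probes were higher in females, against 49% with quantile normalization; Thrsp was then not called (-0.71, adjusted p = 0.0723) and Acacb was (0.60, adjusted p = 0.0106).

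Fads1 was 12.61 to 13.30 in female liver (median 12.96), against 12.37 to 12.97 in male liver (median 12.68), a difference of 0.27 ± 0.06 (limma adjusted p = 0.000258). Fads2, which acts before Fads1 in the same pathway, was 7.52 to 9.03 in female liver (median 8.48), against 7.15 to 8.88 in male liver (median 8.22), a difference of 0.35 ± 0.11 (limma adjusted p = 0.0123). Its second probe gave 0.34 ± 0.14 and just missed the threshold (adjusted p = 0.0502). Fads1 and the first Fads2 probe were higher in females on 4 of 4 scanning days, and the second Fads2 probe on 3 of 4.

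Scd1 was 13.43 to 14.81 in female liver (median 14.07), against 12.40 to 14.28 in male liver (median 13.91; difference 0.37 ± 0.13, limma adjusted p = 0.0249). Acss2 was 8.53 to 11.79 in female liver (median 10.79), against 9.15 to 11.22 in male liver (median 10.27; difference 0.51 ± 0.19, limma adjusted p = 0.0328). Both were higher in females on 3 of 4 days. Pnpla3 was 6.29 to 9.57 in female liver (median 6.91), against 6.24 to 8.26 in male liver (median 6.53; difference 0.56 ± 0.21, limma adjusted p = 0.0339), and 24 female and 22 male arrays were above background.

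Thrsp was 6.40 to 10.55 in female liver (median 8.11), against 6.72 to 11.09 in male liver (median 9.29). It was lower in females by 0.88 ± 0.33 on the log2 scale (limma adjusted p = 0.0333), on 4 of 4 days. Acacb (0.43 ± 0.18, limma adjusted p = 0.0658), Elovl6 (0.00 ± 0.16), Acly (-0.05 ± 0.14) and Fasn (-0.08 ± 0.15) did not pass. The number of probes above background moved with sex in liver, and with that number as a term, an alternative chosen after seeing the data, Fads1 and Fads2 were called and the other 4 were not: Thrsp -0.31, Scd1 0.13, Acss2 0.53 and Pnpla3 0.55 (adjusted p of 0.608, 0.568, 0.0938 and 0.118). That fit called 1916 of all 8504 liver probes, against 2893 without the term. The liver calls also depended on the arrays used, as did the number of all probes called. Thrsp was not called without day 1, 2 or 6 (adjusted p of 0.0819, 0.153 and 0.168), and without day 5 it alone was called, Fads1 having an adjusted p of 0.0615. Without day 1, Acss2, Pnpla3 and Fads2 were also not called (0.314, 0.103 and 0.0854), and without day 6 neither were Pnpla3 and Scd1 (0.0978 and 0.0966). Without the 3 least correlated arrays, Thrsp, Scd1, Acss2 and Pnpla3 were not called (adjusted p of 0.0837, 0.0728, 0.0639 and 0.0668), and without the filter on dim probes only Fads1 was.

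**Figure D2:**
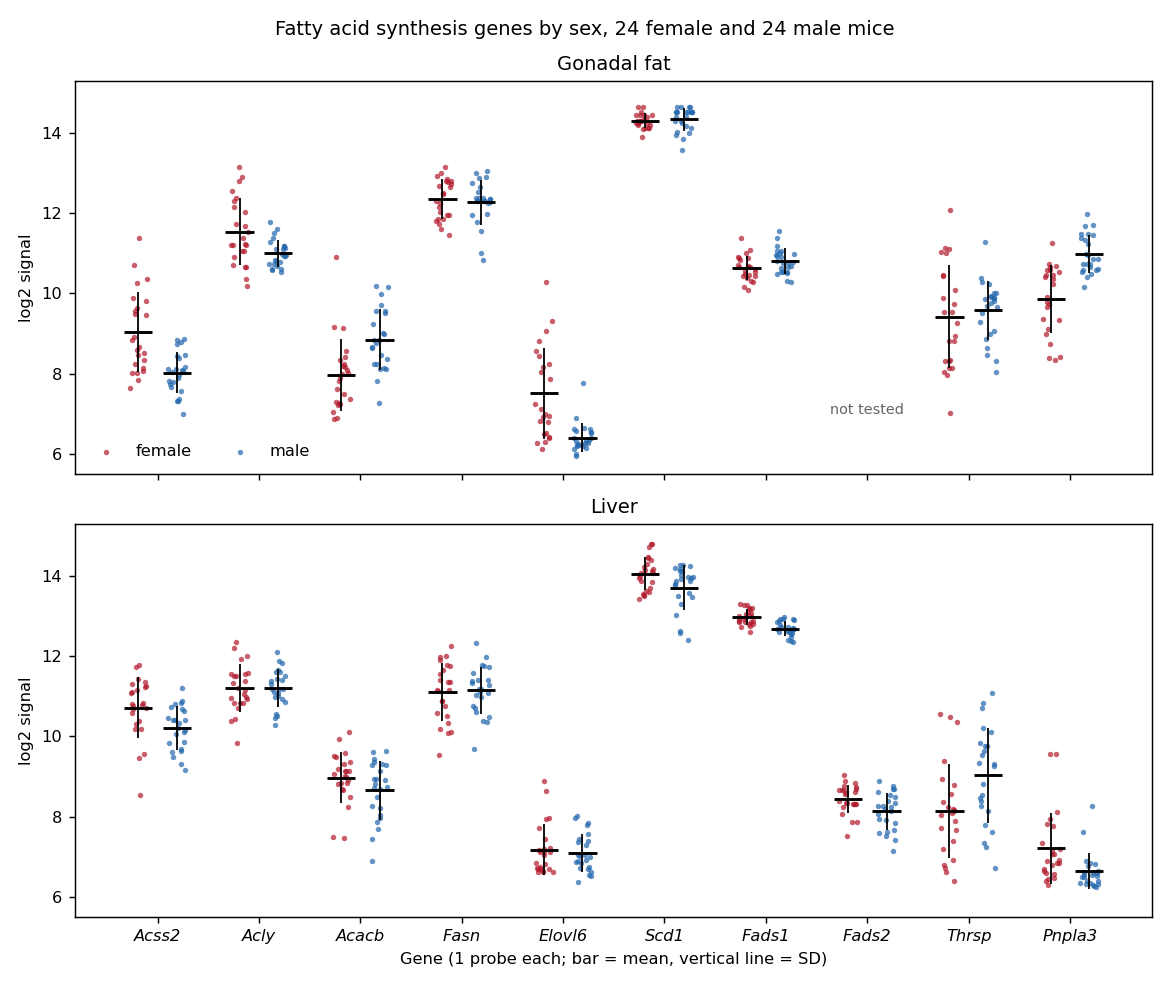
Log2 signal of each gene in gonadal fat (upper panel) and liver (lower panel), with 24 females (left of each pair) and 24 males (right); points are mice, bars means and vertical lines SDs, and Fads2 in fat was not tested. In fat, Acss2 and Elovl6 lie higher and Pnpla3 and Acacb lower in females, while in liver Pnpla3 lies higher in females.

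Whether the sex difference itself differed between fat and liver was tested as an interaction, and 5 of the 9 genes measured in both tissues passed, beside 27.7% of all probes. Pnpla3 had the largest gap, with a sex difference lower in fat than in liver by -1.78 (limma adjusted p = 1.14e-05), since it was lower in female fat and higher in female liver. Acacb followed at -1.40 (adjusted p = 0.000183), then Fads1 at -0.52 (adjusted p = 6.86e-05) and Scd1 at -0.405 (adjusted p = 0.0438). For Fads2 no sex difference could be measured in fat, so its interaction is not read. Elovl6 went the other way, at 0.93 (adjusted p = 0.0145). Acss2, called higher in females in both tissues, gave 0.60 (adjusted p = 0.164), and Acly gave 0.55 (adjusted p = 0.0905).

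Beyond the 10 genes, triglyceride assembly had 6 of 11 genes lower in female fat and 0 higher, with a median difference of -0.41, where 849 of all 6871 genes were higher and 750 lower (median 0.00). These were Gpat4 (-0.48), Mogat1 (-0.95), Lpin1 (-0.65), Agpat3 (-0.41), Agpat2 and Gpat3, which build triglyceride from glycerol phosphate or monoacylglycerol. In liver the same list had 2 genes higher and 2 lower in females of 9 (median 0.08), where 1037 of all 5827 genes were higher and 1039 lower. Among 14 other synthesis, elongation and desaturation genes in fat, the dehydratase gene Hacd2 (-0.83) and Hacd3 (-0.26) were lower in females and 0 were higher. In liver 2 of 16 were higher in females and 5 lower, with the elongase gene Elovl3 (-1.31), Fads6 (-0.41) and Elovl1 (-0.19) lower and Mcat (0.09) higher. Of the regulators, 2 of 10 were lower in female fat, Mid1ip1 (-0.70), a relative of Thrsp, and Scap (-0.25), while in liver Scap (0.36) was higher and Insig2 (-0.38) and Rxra (-0.09) were lower, 3 of 9.

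Acetyl-CoA and NADPH supply had 3 genes higher and 2 lower in female fat of 12 (median 0.03), among them Pdha1 (0.33), Tkt (0.46), Pdk4 (0.58) and Aacs (-0.85), the cytosolic gene that activates acetoacetate. In liver 1 was higher and 3 lower of 11 (median -0.08), and Aacs was again lower in females (-1.05), with Taldo1 (-0.19), Pdhb (-0.16) and Pdk4 (0.31). Sugar uptake and glycolysis had Hk2 lower (-0.70) and Tkfc higher (0.08) in female fat, 2 of 6, and in liver 1 of 6, Pfkl (-0.19). These lists were chosen with results of these data known, and their counts describe them only.

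The comparison of haplotype classes addresses the stated search for expression QTLs. Here 0 of the 9 genes in fat and 0 of the 10 in liver passed limma's F-test over the 4 classes. The same test called 0.401% of all fat probes and 0.317% of all liver probes. At an unadjusted p under 0.05 there were 2 of the genes in fat (12.9% of all fat probes) and 2 in liver (5.35% of all liver probes). The median range between the highest and the lowest class was 0.33 for the genes in fat, against 0.13 over all genes, and 0.46 in liver, against 0.08. Most of the lipogenic genes also varied more between mice than the median gene.

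Fads1 in fat came nearest to the threshold. It averaged 10.75 ± 0.19 in class 1, 10.97 ± 0.28 in class 2, 10.50 ± 0.19 in class 3 and 10.65 ± 0.32 in class 4 (SD after removal of sex and scanning day, n = 12 each; F-test p = 0.000527, limma adjusted p = 0.0688). The direct comparison of class 3 with class 2 passed, at -0.47 ± 0.11, or 1.39-fold (limma adjusted p = 0.028), where 0.421% of all fat probes were called, and it was the only called pair of classes for any of the genes in either tissue, beside a mean over the 6 pairs of 0.359% of all probes in fat and 0.102% in liver. It rested in part on the class 2 male array with epididymal transcripts, without which it was -0.45 (adjusted p = 0.0567), and it was not called without day 4, 7 or 8 or with median scaling. The F-test passed with median scaling, without day 3 and with the number of detected probes as a term (adjusted p of 0.0273, 0.0384 and 0.0464). Those fits called 937, 55 and 59 of all 10217 fat probes in turn, against 41 in the main fit.

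Acacb in fat averaged 8.26 in class 1, 9.00 in class 2, 8.17 in class 3 and 8.20 in class 4 (n = 12 each; F-test p = 0.0213, limma adjusted p = 0.297). In liver, Scd1 averaged 13.70 in class 1, 13.61 in class 2, 14.05 in class 3 and 14.19 in class 4 (n = 12 each; F-test p = 0.00393, limma adjusted p = 0.468), and Acacb 8.62, 8.54, 8.88 and 9.21 in the same order (p = 0.0325, adjusted p = 0.9). Class 4 had the highest mean for all 10 genes in liver and the differences did not pass for any of them. These genes covary between mice, so this order is a description. Acss2 is the gene of the set on chromosome 2, and its class F-tests gave adjusted p of 0.813 in fat and 0.998 in liver. The interactions of class with sex were called for 0 of the genes and 0% of all probes in either tissue by limma, and 0 genes passed the interaction of class with tissue, which called 0.179% of all probes. At an unadjusted p under 0.05 there were 0 of the genes for sex and class (6.7% of all probes in fat and 6.74% in liver) and 3 for tissue and class (Acacb, Fads1 and Scd1; 8.01% of all probes).

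**Figure D3:**
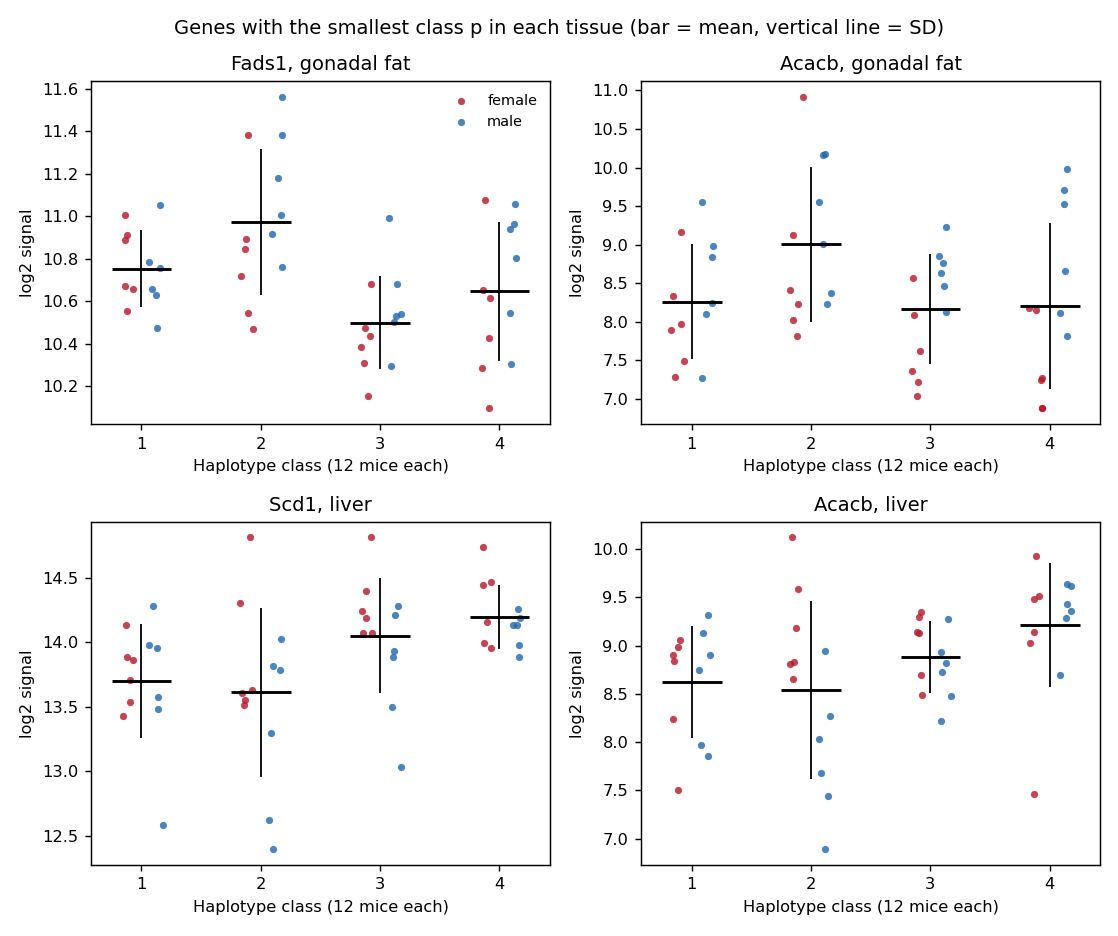
Log2 signal of Fads1 and Acacb in gonadal fat (top) and Scd1 and Acacb in liver (bottom) by haplotype class, with 12 mice per class; points are mice, bars means and vertical lines SDs with no terms removed. Fads1 in fat runs from 10.50 in class 3 to 10.97 in class 2, and the classes overlap in every panel.

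The genes varied widely between mice. In fat the highest array exceeded the lowest 33.2-fold for Thrsp, 20.9-fold for Acss2, 20.3-fold for Elovl6, 16.5-fold for Acacb and 12.6-fold for Pnpla3, against a median of 2.1-fold over all genes. The SD of Thrsp was larger than that of 99.4% of the genes tested in fat, and that of Acss2 larger than 99.2%. Scd1 (2.13-fold, 53.7%) and Fads1 (2.77-fold, 73.9%) varied less than the other members in fat. In liver, Thrsp spanned 25.8-fold, Pnpla3 10.1-fold, Acss2 9.53-fold and Acacb 9.4-fold, while Fads1 spanned 1.9-fold (62.2%), against a median of 1.8-fold.

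In fat the spread was wider among females. After class, sex and scanning day had been removed, the SD in females over that in males was 2.7 for Elovl6 (1.07 and 0.40), 2.13 for Acly (0.78 and 0.37), 1.93 for Pnpla3 and 1.89 for Acss2, and 0.764 for Scd1. It was above 1 for 8 of 9 genes (median 1.72), against 43.7% of all genes (median 0.95), and in liver for 8 of 10 (median 1.23), against 39.2% of all genes. Elovl6 was above background on 17 of 24 male fat arrays, and the part of that in its male SD was not tested. Without the array with epididymal transcripts its ratio was 3.44 (1.08 and 0.31), and the ratio was above 1 for 8 of 9 genes, with a median of 1.71, against 46.8% of all genes. No test was made of these ratios, which were computed after seeing the data.

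Covariation between the genes was measured over the 48 mice of a tissue, on residuals from which class, sex and scanning day had been removed. A pair was called where each gene's slope on the other passed in limma after adjustment over all probes of the tissue. In fat 16 of 36 pairs were called, beside a mean of 2.14% of all probes called on one of the genes. The median r was 0.47 for these pairs and 0.00 over all pairs of genes, and 44.4% of the pairs exceeded 0.5, against 1.42% of all pairs. All 16 called pairs were positive, and 12 of them were positive within each of the 4 scanning days.

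Acss2, Acly, Elovl6 and Thrsp formed the closest group in fat. Acss2 and Acly, which both make acetyl-CoA, had r = 0.929 and rho = 0.916 (n = 48, permutation p = 1e-05 for each, the smallest that 100000 resamples can give; limma adjusted p = 6.41e-16). Among the 10216 other probes Acly ranked 2nd for Acss2 and Acss2 ranked 1st for Acly. Without the 2 arrays farthest from the median of Acss2, r was 0.908. Elovl6 and Acly had r = 0.916 and rho = 0.916 (permutation p = 1e-05 each, limma adjusted p = 3.19e-14; 0.891 without the 2 farthest arrays), and Acly ranked 1st for Elovl6. The other pairs of the group had r of 0.875 (Acss2 and Elovl6), 0.845 (Acss2 and Thrsp), 0.831 (Thrsp and Acly) and 0.779 (Thrsp and Elovl6). Within single scanning days, with no terms removed, r lay between 0.83 and 0.96 for Acss2 and Acly and between 0.72 and 0.97 for Elovl6 and Acly. Thrsp and Elovl6 were less even, with -0.032 to 0.714 and 3 of 4 days positive.

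Fasn joined this group less closely. Its r was 0.713 with Acss2, 0.673 with Thrsp, 0.636 with Acly, 0.549 with Elovl6 and 0.523 with Acacb, all called. Acacb had 5 called pairs, with r of 0.523 to 0.698, and its pair with Elovl6 had r = 0.528, or 0.339 without the 2 farthest arrays. Pnpla3 was called with Thrsp alone (r = 0.638). Scd1 and Fads1 were in 0 called pairs, with r of -0.082 to 0.480 and -0.082 to 0.475, and Scd1 lay at the top of the signal scale in fat. Of all 10216 other probes, 0 were called on Scd1 and 25 on Fads1. The lack of called pairs of Scd1 is therefore shared with every other gene, and Fasn still ranked 37th for it.

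In liver 27 of 45 pairs were called, beside a mean of 6.11% of all probes, and the median r was 0.54 against 0.00 over all pairs of genes. That background was uneven, from 16 of 8503 probes called on Scd1 and 62 on Pnpla3 to 1119 on Fasn. It was 1081 on Thrsp, 778 on Fads1 and 1086 on Fads2. Here 57.8% of the pairs exceeded 0.5, against 1.8% of all pairs, and all 27 called pairs were positive within each of the 4 scanning days. Acss2 and Acly again stood closest, with r = 0.871 and rho = 0.815 (permutation p = 1e-05 each, limma adjusted p = 1.52e-10; 0.828 without the 2 arrays farthest from the median of Acss2), and each ranked 1st for the other among 8503 probes. Acacb was closer to them in liver, at 0.837 with Acss2 and 0.800 with Acly.

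The genes of polyunsaturated fatty acid synthesis stood closest to each other. Fads1 and Fads2 had r = 0.822 and rho = 0.799 (permutation p = 1e-05 each, limma adjusted p = 6.7e-07; 0.803 without the 2 arrays farthest from the median of Fads1), ranked 1st for each other, and had r of 0.835 to 0.870 within single days. Thrsp was linked to both, at 0.737 with Fads1 and 0.662 with Fads2. Fads1 was also called with Elovl6 (0.702), Acss2 (0.614), Acacb (0.606), Acly (0.594) and Pnpla3 (0.573), and Fads2 with Acacb (0.547) and Elovl6 (0.532). Pnpla3 and Elovl6 had r = 0.786 and rho = 0.593, and r was 0.617 without the 2 farthest arrays. Fasn was called with Acly (0.561) and Pnpla3 (0.556) only, and Scd1 with Acacb only (0.621).

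**Figure D4:**
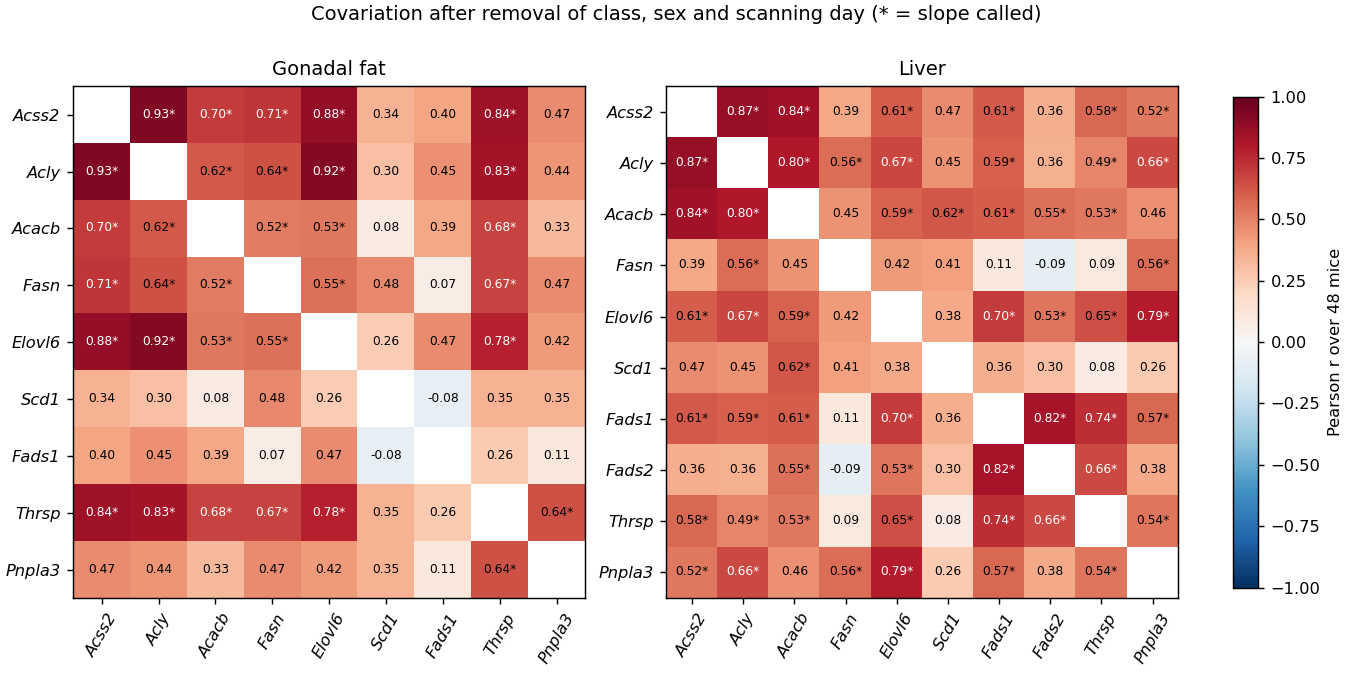
Pearson r for each pair of genes over 48 mice in gonadal fat (left) and liver (right), after removal of class, sex and scanning day; asterisks mark called pairs. In fat the highest values join Acss2, Acly, Elovl6 and Thrsp, and in liver Acss2 with Acly and Acacb, and Fads1 with Fads2.

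Of the 36 pairs measured in both tissues, 16 were called in fat, 23 in liver and 12 in both, which is 75% of those called in fat and 52.2% of those called in liver. The 75% stands beside 23 of all 36 pairs called in liver, and the 52.2% beside 16 of all 36 called in fat. Whether the overlap exceeds these shares was not tested. All 3 pairs among Acss2, Acly and Elovl6 were called in both, as was Acss2 with Thrsp. Pairs of Fasn with Acss2, Thrsp, Acacb and Elovl6 were called in fat and not in liver, where their r was 0.385, 0.094, 0.446 and 0.424. No test of a difference in r between the tissues was made.

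The covariation in fat was closer among females. The median r over the 36 pairs was 0.60 in the 24 females and 0.29 in the 24 males, and 16 pairs were called in females and 0 in males when each sex was fitted alone. For the fits to a single sex, in fat and in liver, the share of all probes called on the genes was not kept. Their counts of pairs thus have no background beside them and are not read as particular to these genes. Acss2 and Acly had r of 0.966 in females and 0.788 in males, Elovl6 and Acly 0.958 and 0.696, and Fasn and Acly 0.780 and 0.313. Other pairs of the closest group were weaker in males: Acss2 and Elovl6 had 0.970 in females and 0.437 in males, and Thrsp and Elovl6 0.909 and 0.240. The difference in slope between the sexes was then tested, a test chosen after seeing the data. It passed for 6 of 72 ordered pairs in fat, beside a mean of 0.586% of all probes: Elovl6 on Acss2, Thrsp and Acacb (limma adjusted p of 0.00341, 0.00311 and 0.002), and Acss2, Thrsp and Elovl6 on Fads1 (0.0221, 0.0111 and 0.0492). At an unadjusted p under 0.05 in limma there were 36 of the 72 in fat. These ordered pairs share genes, and no share of all probes was kept at that threshold. Elovl6 was above background on 22 of 24 female and 17 of 24 male fat arrays, and the part of that in the slopes was not tested. In liver the median r was 0.59 in females and 0.52 in males, 7 and 2 pairs were called, and the slope differed by sex for 0 of 90 ordered pairs in limma (6 at an unadjusted p under 0.05), beside a mean of 0.0047% of all probes.

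**Figure D5:**
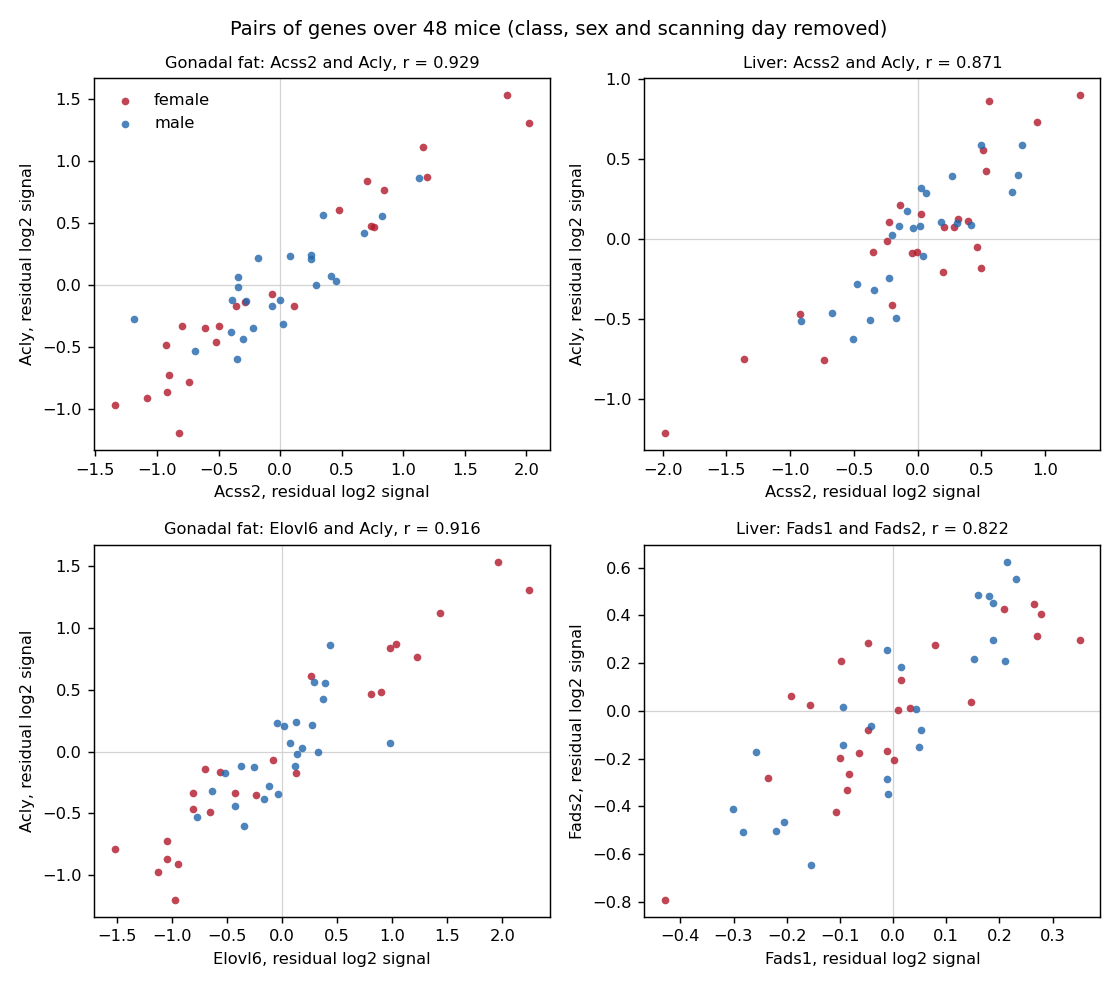
Residual log2 signals of Acss2 and Acly in gonadal fat and liver (top), Elovl6 and Acly in fat (bottom left) and Fads1 and Fads2 in liver (bottom right), each point a mouse, females and males in different colours. The r values over 48 mice are 0.929, 0.871, 0.916 and 0.822, and in fat the females reach further in both directions.

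The genes most like the set were looked for among all other genes tested, by Pearson r over the 48 mice. In fat, those closest to the mean of the standardised residuals were Tkt (0.899) and Me1 (0.897), which supply NADPH or its precursors, the cytosolic carboxylase gene Acaca (0.896), the citrate carrier gene Slc25a1 (0.859) and Agpat2 (0.839), a gene of triglyceride assembly. The median over all other genes was -0.02. Closest to Fasn alone in fat were Me1 (0.794), Tkt (0.725), Slc25a1 (0.717), Acaca (0.711) and the respiratory chain gene Ndufb9 (0.700).

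In liver the genes closest to the mean were Tlcd1 (0.813), the retinol dehydrogenase gene Rdh11 (0.783), Acaca (0.779), Chrna4 (0.779) and Rnf103 (0.763). Closest to Fasn in liver were Rbx1 (0.790), the histone genes H3f3b (0.722) and H3f3a (0.701), Vcl (0.698) and Ebpl (0.677), of which 0 belong to the lists of the pathway. Acaca was among the 5 closest genes to the mean in both tissues.

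Several array measures moved with the genes, and their part in the covariation was not tested. Marker measures here are mean log2 signals of the markers tested in a tissue, with class, sex and scanning day removed. In liver, Fasn residuals had r = 0.457 with the number of detected probes and 0.518 with the hepatocyte markers. Thrsp had -0.384 and -0.430, Fads2 -0.339 and -0.466, and Fads1 -0.224 and -0.393. Scd1 had 0.399 and 0.14, Elovl6 -0.027 and -0.237, and the rest lay between -0.051 (Pnpla3) and 0.019 (Acacb). In fat, Scd1 had r = -0.508 with erythroid markers, Pnpla3 0.443 with adipocyte markers, Elovl6 -0.402 with macrophage markers and Acss2 0.402 with mesothelial markers. The r with macrophage markers was negative for every gene tested in fat, among them Acly (-0.288), Acss2 (-0.284) and Thrsp (-0.245). With mesothelial markers Acacb had 0.354, Acly 0.349, Thrsp 0.311 and Elovl6 0.215. Fasn had 0.191 and Fads1 0.171 with them, while Scd1 (-0.071) and Pnpla3 (-0.091) were negative. These 48 arrays share their normalization, so the values are descriptions.

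Last, the level in fat was set against the level in liver of the same mouse for the 9 genes tested in both tissues. Pnpla3 had r = 0.410 and rho = 0.379 (n = 48, permutation p = 0.00353 and 0.00808), Thrsp r = 0.376 and rho = 0.299 (p = 0.00851 and 0.0392) and Acly r = 0.336 and rho = 0.319 (p = 0.0195 and 0.027). Without the 2 mice farthest from the median these were 0.341, 0.349 and 0.409. None of the 3 passed after adjustment over all 7376 probes (adjusted p of 0.155, 0.239 and 0.365), a test that called 1.33% of them. The other 6 genes had r of -0.065 (Fasn) to 0.159 (Elovl6). The median r was 0.14 for the 9 genes and 0.04 over all probes, for which the central 90% ran from -0.22 to 0.33.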

How the data were processed

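RNA from gonadal fat and liver of 48 mice was measured on 96 bead arrays of 46116 probes. The deposited intensity values are raw probe signals with no normalization, per the file headers, and the deposited detection column, headed as a p-value, was read here as 1 minus that p-value because it rises with the signal; every detection count rests on this reading. The authors' matrix is on a log2 scale; the submitters' processing notes name lumi, with no version or settings. No build or aligner applies. All 96 columns were matched to samples by name, with 0 left over.

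Raw intensities were background-corrected and quantile-normalized with limma's neqc (offset 16; limma 3.58.1, R 4.3.3), within each tissue, and over both for fat against liver. Probes with a detection p under 0.01 on at least 12 arrays were tested with lmFit and eBayes (trend), Benjamini-Hochberg threshold 0.05, on terms for class, sex and scanning day (tissue, sex and class for fat against liver). The code was tested on simulated data with known changes. Of the probes, 29534 carried 1 symbol, 11 several and 16571 none. The number of arrays limits the precision.

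The genes and lists were chosen with earlier results of these data known. All probes of the 10 genes are named, and the probe with the highest mean stands for a gene. From each list up to 4 genes with the largest moderated statistic are named (Agpat2 and Gpat3 by sex in fat were added after their values were seen), and for Fasn and the mean the 5 most correlated genes. Fat and liver arrays of a mouse are paired by the animal; their residual correlation was -0.0258 in the tissue model and 0.0295 in the interaction model. Alternatives were the deposited matrix, median scaling, no background correction, other filters, no day term, and leaving out days or the 3 least correlated arrays. Chosen after seeing the data were the number of detected probes as a term, leaving out the array with epididymal transcripts, day as a random block, the slopes by sex and the checks of the Fads1 class pair. Promoters came from RefSeq (GRCm38.p6).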

Additional observations from a re-analysis of the deposited data

Results flagged for a closer look

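In 152 sets of 6 mice (a gene in a tissue, class and sex), 9 held a mouse whose distance from the rest passed Dixon's 95% value; chance flags about 1 in 20 groups. Pnpla3 and Elovl6 were both high in the liver of the same class 1 female, replicate 5, at 9.568 and 8.892, against 6.571 to 6.848 and 6.704 to 7.121 in the other females of the class. In liver, Acacb was low in class 4 female replicate 4 (7.46, others 9.025 to 9.933) and class 4 male replicate 6 (8.692, others 9.285 to 9.637), Acly in class 3 male replicate 5 (10.5, others 11.089 to 11.414) and Fads2 in class 3 male replicate 1 (7.427, others 8.137 to 8.392). In fat, Fasn was high in class 1 male replicate 4 (13.052, others 12.245 to 12.522), Thrsp low in class 3 male replicate 3 (8.859, others 9.669 to 10.008), and Elovl6 high in class 2 male replicate 1 (7.753, others 5.997 to 6.527), the array with epididymal transcripts.

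The female minus male difference itself differed between fat and liver, as fat minus liver, for Pnpla3 (-1.784), Acacb (-1.399), Fads1 (-0.523), Scd1 (-0.405) and Elovl6 (0.928). The same fit gave -0.392 and -0.39 for the Fads2 probes 630253 and 105130020, which were above background on 2 and 3 of 48 fat arrays, so no sex difference was measured in fat and these values are not read as a difference. Scd1 was not called without the 3 least correlated arrays (adjusted p = 0.066) or without the filter on dim probes (adjusted p = 0.119) in limma.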

How the results depend on the processing

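Fat against liver kept direction and call in 83 of 90 alternatives over the 10 called genes, and the tissue and sex interaction in 52 of 54 over 6, both with Fads2 counted. With scanning day as a random block, 6 genes differed between the tissues, beside 73.6% of all probes. With the mouse as a replicate block, which pairs the tissues of an animal, the counts were 10 for fat against liver, 6 for tissue by sex and 0 for tissue by class, as without it. These stood beside 10132, 3330 and 25 of all 11718 probes.

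For sex in fat, 57 of 65 alternatives kept the call. Without day 3 there were 2 called genes, beside 970 of all 10217 probes, where the main fit called 2314. For sex in liver 45 of 72 kept the call. The count was 1 without the filter on dim probes, beside 2430 of 46116 probes. It was 2 without day 1, 1 without day 5 and 3 without day 6, beside 2425, 1712 and 1972 of 8504. It was 2 without the 3 least correlated arrays and 2 with detected probes as a term, beside 2515 and 1916 of 8504. The main fit called 2893 of 8504. For class in fat, 1 gene, Fads1, passed with median scaling, without day 3 or with detected probes as a term. These fits called 937, 55 and 59 of all 10217 probes in turn, against 41 in the main fit. Called pairs in fat numbered 0 in males alone, and in liver 15 without day 5, 12 without day 6, 7 in females and 2 in males, where each sex has 24 mice. Each of these fits held fewer mice, and the cause of these changes was not tested. No share of all probes called on the genes stands beside these counts of pairs.

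Values that changed sign were small or not called, except Elovl6 between the tissues (0.012 with median scaling) and, in fat males, the correlations of Elovl6 with Acacb (-0.32) and Fasn (-0.106), from residuals of a fit to males alone; over male residuals of the joint fit they were -0.154 and -0.047. The class contrast of Scd1 in fat was -0.02 and the sex difference of Fasn in fat -0.114 without day 7. For sex in liver, Elovl6 was -0.002 without background correction, -0.232 without day 5 and -0.011 without the 3 least correlated arrays, Acly 0.073 with median scaling, 0.003 without the day term and 0.095 without day 2, and Fasn 0.053 with median scaling and 0.088 without day 2. The correlation of fat with liver of the same mouse was -0.04 for Acss2 and -0.05 for Fads1 with median scaling, and -0.037 for Acacb and -0.024 for Scd1 without the 3 least correlated arrays. Signal over background limits Fads2 and Elovl6 in fat, and the top of the scale Scd1.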
